A study of Mus musculus with 24 samples.

Results

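The interleukins and their receptors were followed through RNA sequencing of mouse organ of Corti (OC) explants, the sensory epithelium of the cochlea with its hair cells and supporting cells. The members were all genes of the count table whose mouse symbol begins with Il followed by a digit. This rule used no measured value and found 84 genes among the 24374 genes with a symbol. By role they were 37 ligands, 38 receptor chains, 6 antagonists, decoys or binding proteins, and 3 enzymes or antisense RNAs.

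Male and female C57BL/6N mice gave the OCs at an age of 5 days, and the explants first spent 24 h in serum-containing medium. Treatment then lasted 6 or 24 h, either with no drug (CTRL) or with 50 µM gentamicin (GM), 10 µM pioglitazone (PIO) or the 2 combined (PIO + GM). There were 8 groups of treatment and time with 3 libraries apiece, and each library pooled 6 OCs. Gentamicin is an aminoglycoside antibiotic that damages hair cells, and pioglitazone, a thiazolidinedione, activates the nuclear receptor PPAR-γ. Whether the 3 libraries of a group came from separate mice was not stated, so the p-values measure the spread between these libraries. All libraries, the controls included, were explants in serum-containing medium with penicillin, so no group shows the genes in the intact cochlea. The pooled tissue also means that fewer cells of a type and less RNA per cell cannot be told apart.

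Interleukins are secreted proteins through which cells, above all those of the immune system, signal to one another. They bind receptors built from a ligand-specific chain and a chain that several interleukins share, such as gp130, the common gamma chain, the IL-10 receptor beta chain or the IL-17 receptor A chain. The IL-1 family signals through the MyD88 adaptor to NF-κB, while most of the other families signal through Janus kinases and STAT factors. In the cochlea, macrophages and epithelial and mesenchymal cells are known to produce or respond to interleukins after noise or ototoxic drugs.

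Totals per library ran from 7211357 to 15548856 counts, with a median of 12538495, and the PIO + GM library of replicate 3 at 6 h was the smallest. That library and the PIO library of replicate 2 at 6 h also carried the most reads on 1479 olfactory and vomeronasal receptor genes, which an OC should hardly express. Their summed level reached 278 CPM (a gene's counts scaled to a common library size of 1000000), against 38.7 in the lowest library. The defining genes of the labelled tissue were present, with Myo7a of hair cells at 292 to 1437 counts and Sox2 of supporting cells at 261 to 1243 counts per library. Macrophage markers were present as well, C1qa at 24 to 435 counts, while the 5 neutrophil genes had at most 10 counts. Of the T cell genes, Cd3d, Cd3e and Cd3g had at most 7 counts, Cd8a 1 to 18, Cd4 4 to 34 and Lck 41 to 101. Of the mast cell genes, Cpa3, Mcpt4, Tpsb2 and Fcer1a had at most 5 counts and Kit 334 to 1455.

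Upstream sequences are shown for 4 ligands whose levels moved most clearly in the results that follow. RefSeq (GRCm38.p6, the mm10 build of the counts) gave a start site for 67 of the 84 members. The 250 bases before each start were searched on both strands for the AP-1 motif TGANTCA and for the 10-base NF-κB motif. Capitals mark matches to either motif, and no AP-1 match overlapped an NF-κB match in these windows. Il6 (chr5:30012864-30013113, plus strand) held an AP-1 match that began 249 bases and an NF-κB match that began 44 bases before the start. Il11 held an AP-1 match 98 bases before the start shown (chr7:4778142-4778391, minus strand). The window of another Il11 start (chr7:4782858-4783107, minus strand) held neither motif. Il16 was read at 2 of its starts on the minus strand, the upstream one (chr7:83735540-83735789) with an AP-1 match 18 bases before the start and the downstream one (chr7:83655496-83655745) with overlapping NF-κB matches. The window of another Il16 start (chr7:83732399-83732648, minus strand) held neither motif. Il18 (chr9:50554450-50554699, plus strand) held neither.
Il6: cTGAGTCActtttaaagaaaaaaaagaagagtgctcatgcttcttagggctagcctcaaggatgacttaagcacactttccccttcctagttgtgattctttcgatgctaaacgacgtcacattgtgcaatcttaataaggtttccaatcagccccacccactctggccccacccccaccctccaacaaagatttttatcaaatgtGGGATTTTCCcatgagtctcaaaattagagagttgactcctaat
Il11: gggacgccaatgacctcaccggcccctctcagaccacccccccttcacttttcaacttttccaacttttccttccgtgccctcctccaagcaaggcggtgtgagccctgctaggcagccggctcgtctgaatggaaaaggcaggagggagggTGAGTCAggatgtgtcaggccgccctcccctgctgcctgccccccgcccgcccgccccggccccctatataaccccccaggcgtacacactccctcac
Il16, upstream start: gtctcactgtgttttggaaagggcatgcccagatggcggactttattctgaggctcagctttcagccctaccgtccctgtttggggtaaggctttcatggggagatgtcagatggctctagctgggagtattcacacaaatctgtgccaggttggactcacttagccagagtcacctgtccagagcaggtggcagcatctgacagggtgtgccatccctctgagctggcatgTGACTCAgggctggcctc
Il16, downstream start: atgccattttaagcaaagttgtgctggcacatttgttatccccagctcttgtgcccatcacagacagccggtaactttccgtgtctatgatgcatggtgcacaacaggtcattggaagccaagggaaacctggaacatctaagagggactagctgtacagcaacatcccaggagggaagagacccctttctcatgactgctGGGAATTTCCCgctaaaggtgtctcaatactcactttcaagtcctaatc
Il18: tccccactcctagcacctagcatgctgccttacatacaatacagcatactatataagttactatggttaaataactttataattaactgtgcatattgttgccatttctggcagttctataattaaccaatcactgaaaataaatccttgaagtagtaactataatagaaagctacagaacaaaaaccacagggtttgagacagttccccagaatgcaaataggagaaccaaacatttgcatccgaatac

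Over all members with a window, 14 of 67 (20.9%) held the AP-1 motif, against 7.82% of all 27025 genes with one. Il6, Il11, Il16, Il1rn, Il13ra2 and Il22ra1 were the 6 with the motif among the 21 members with a window that were lower at 24 h than at 6 h. Il15ra and Il17rb were the 2 among the 9 that were higher. The motif also stood before 6 of 27 members too low to be tested (22.2%) and 0 of 10 tested members that were not called. The NF-κB motif stood before 5 of 67 members (7.5%), namely Il6, Il16, Il19, Il1r1 and Il2ra, against 4.46% of all genes. The direct repeat of AGGNCA spaced by 1 base, the element of PPAR with its partner RXR, was found before 0 of 67 members and 0.4% of all genes. These matches are letters in a window, not evidence of binding.

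All 84 members had at least 1 count in some library, but far fewer had a measurable level. At least 1 CPM in 3 or more libraries was reached by 46 members, at least 1 CPM in all 24 libraries by 25, and 49 passed the filter for testing (58.3%). Receptors and ligands differed widely in this respect. Of the 38 receptor chains, 32 (84.2%) were tested, and of the 37 ligands 12 (32.4%). Every receptor of the IL-17 family (5 of 5) and of the gp130 family (6 of 6) was tested, whereas 1 of 6 IL-17 family ligands was.

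Levels between genes were compared per length, as RPKM, the CPM divided by the gene length in kilobases. Il6st stood highest, with a mean of 75.4 ± 12.2 RPKM (SD, n = 24) and 100.4 RPKM in the highest library. It encodes gp130, the signal-transducing chain shared by IL-6, IL-11 and related cytokines. Il11ra1, the IL-11 receptor chain, followed at 18.9 ± 7.25 RPKM. Then came Il13ra1 at 16.7 ± 6.51, which pairs with Il4ra in the receptor for IL-4 and IL-13, and Il10rb at 16.0 ± 2.37, the second chain of the IL-10 and IL-22 receptors. Those 3 overlapped in their range over libraries, so their order is not resolved, while the lowest library of Il6st lay above the highest of each. Il4ra itself had a mean of 9.33 RPKM, and Il17rd, a receptor-like protein that restrains FGF signalling, 8.60 RPKM.

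Ligands began lower. Il18, which is matured by caspase-1, had the highest mean among them over all libraries, 5.88 RPKM. Il16, a ligand of CD4, followed at 4.94 and Il33, a nuclear alarmin that binds Il1rl1, at 4.62. Il18, Il16 and Il33 overlapped in their range over libraries, so their order is not resolved. Il17d had 3.71, Il15 2.76, Il34 2.33 and Il11 1.68 RPKM, and these were the 7 ligands above 1 RPKM. Il6, Il1b and Il19 had means of 0.664, 0.670 and 0.668 RPKM over all libraries, with libraries at 0 for each. All of these ligand means pool the libraries of 6 and 24 h, between which levels differed as given below. Il18 was higher at 24 h than at 6 h, whereas Il16 and Il33 were lower. The order of the pooled means therefore need not hold at each time.

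The 35 members that were not tested included 25 ligands and never exceeded 17 counts in a library, a count reached by Il12b, the p40 chain of IL-12 and IL-23. Of these, 22 lay at or below 0.0986 RPKM, the 95th percentile of the olfactory and vomeronasal receptor genes. The T cell cytokines were among them. Il17a had at most 1 count and Il2 at most 2 counts in any library, and Il4 and Il13 had at most 3. Il10 had 0 to 5 counts and Il1a 0 to 14 counts. For such genes a count of 0 still allows a level of up to 0.193 to 0.416 CPM, depending on the library (3 counts, counting error only), so they were not detectable at this depth rather than absent. Il17c was an exception in being seen in all 24 libraries, at 1 to 8 counts.

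**Figure D1:**
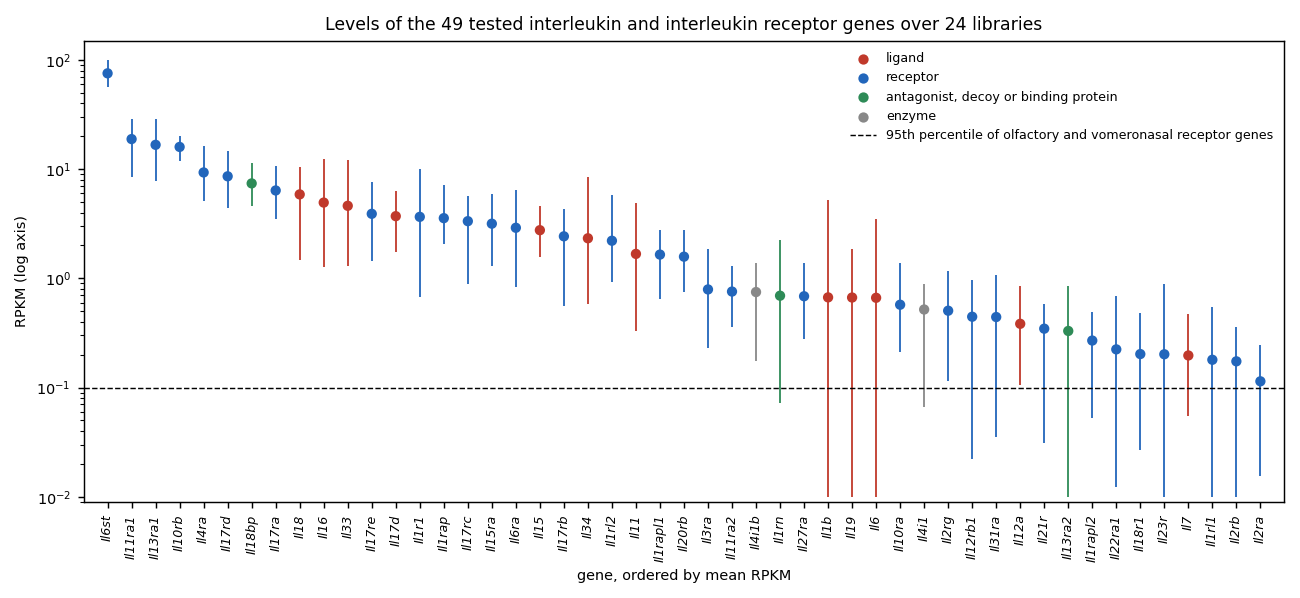
Mean level (dots) and range over 24 libraries (lines) of the 49 tested members in RPKM on a log axis, coloured by role; lines that reach the lower edge include libraries at 0. Il6st stood at 75.4 RPKM, above all others, and the dashed line marks the 95th percentile of olfactory and vomeronasal receptor genes, 0.0986 RPKM.

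Some members share sequence with other genes, which limits how their reads can be assigned. All 76-base windows of Il11ra2 also occur in another gene, mainly Il11ra1, and 35.6% of those of Il11ra1 do. For Il4i1 the share was 72.6%, for Il2rg 25.9%, for Il16 14.5% (with Stard5), for Il10rb 12.8% and for Il4ra 7.9%. Values of Il11ra2 and Il4i1 are therefore uncertain, whereas the windows of Il6, Il11, Il18, Il1rn, Il33 and Il34 were not shared.

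Time in culture separated the members more than either drug. Between 6 and 24 h, over all treatments, 35 of 49 members passed an adjusted p of 0.05 (edgeR's quasi-likelihood test with Benjamini-Hochberg adjustment over all genes), 10 of them higher and 25 lower at 24 h. Much of the transcriptome moved as well, 62.6% of 16317 genes, with 31.9% higher and 30.7% lower. The members' shares were 71.4% in all, 20.4% higher and 51.0% lower. Their median log2 fold change was -0.62, against 0.02 for all genes. All libraries of 24 h had also been in culture longer, so time since dissection and time in the treatment medium cannot be told apart.

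Among the IL-6 type cytokines, Il6 and Il11 fell with time. Il6 had 0.240 CPM in the lowest, 1.28 in the median and 3.97 in the highest of the 12 libraries at 6 h, and 0, 0.131 and 0.349 CPM at 24 h. The highest library at 6 h was a CTRL library, and the ranges overlapped slightly. The fitted level was 10.6-fold lower at 24 h (log2 -3.40 ± 0.56 SE, adjusted p = 3.26e-05, edgeR), from 3 to 45 counts per library at 6 h to 0 to 4 counts at 24 h. Il11 ran from 2.36 to 9.91 CPM with a median of 5.97 at 6 h and from 0.662 to 2.10 with a median of 1.14 at 24 h. No library of 24 h reached the lowest of 6 h, and the level was 4.56-fold lower (log2 -2.19 ± 0.23 SE, adjusted p = 1.26e-07, edgeR).

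The receptors for these ligands did not move together. Il6ra, the IL-6 binding chain, lay between 8.37 and 21.8 CPM (median 13.2) at 6 h and between 2.83 and 6.33 (median 5.01) at 24 h, without overlap. Il11ra1 moved the other way, from 16.7 to 34.0 CPM (median 23.0) at 6 h to 45.1 to 56.6 (median 50.4) at 24 h, also without overlap. The log2 changes were -1.60 ± 0.17 SE for Il6ra (adjusted p = 1.07e-07, edgeR) and 1.08 ± 0.10 SE for Il11ra1 (adjusted p = 1.7e-08, edgeR). Il11ra2 gave 1.10, a value that cannot be separated from Il11ra1. Il6st, the shared gp130 chain, had 340 to 503 CPM at 6 h and 311 to 548 CPM at 24 h, and its log2 difference of -0.08 ± 0.10 SE did not pass (adjusted p = 0.508, edgeR), although it did with a covariate for reads on olfactory and vomeronasal receptor genes. Il31ra and Il27ra did not pass either.

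In the IL-1 family, 10 of 12 tested members were lower at 24 h and 1, Il18, was higher. Il18 ran from 1.26 to 4.46 CPM (median 2.14) at 6 h and from 6.51 to 9.05 (median 7.73) at 24 h. Every library of 24 h lay above every library of 6 h, and the level was 3.42-fold higher (log2 1.77 ± 0.15 SE, adjusted p = 6.28e-09, edgeR). Il18bp, the secreted protein that neutralises IL-18, ran the other way, from 10.3 to 15.9 CPM at 6 h to 6.46 to 9.37 CPM at 24 h, with a log2 change of -0.57 ± 0.08 SE (adjusted p = 7.65e-06, edgeR). Il18r1, a chain of its receptor, was also lower, with a log2 change of -0.78.

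Il1b, the classical product of the inflammasome, had 0 to 6.97 CPM (median 0.757) at 6 h and 0 to 1.57 CPM (median 0.166) at 24 h. The highest library of each time was a CTRL library, and the ranges overlapped. The log2 change was -2.52 ± 0.68 SE (adjusted p = 0.00333, edgeR) and became -3.20 without the CTRL library of replicate 3 at 24 h. Within each treatment alone the change of Il1b did not pass. Il1rn, the antagonist of the IL-1 receptor, fell alongside, from 0.651 to 6.07 CPM (median 2.72) to 0.193 to 1.66 CPM (median 0.453), a 5.23-fold lower level (log2 -2.39 ± 0.26 SE, adjusted p = 2.24e-07, edgeR). Il1r1, the signalling receptor, was 3.94-fold lower, from 12.0 to 50.7 CPM at 6 h to 3.44 to 13.0 CPM at 24 h, with slight overlap (adjusted p = 2.63e-07, edgeR).

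Further IL-1 family members followed the same direction. Il1rap, the accessory chain shared by IL-1, IL-33 and IL-36 receptors, had 25.4 to 60.6 CPM at 6 h and 17.5 to 24.8 CPM at 24 h, without overlap (log2 -0.87 ± 0.10 SE). Il33 and its receptor Il1rl1 both fell, Il33 from a median of 15.0 to 6.69 CPM (log2 -1.19 ± 0.20 SE) and Il1rl1 from 2.02 to 0.446 CPM (log2 -2.12 ± 0.38 SE). With the covariate for receptor-gene reads the change of Il1rl1 was -1.43 on the log2 scale (adjusted p = 0.000805, edgeR). Il1rl2, the IL-36 receptor, had a log2 change of -1.18, and Il1rapl2 of -0.77. Il1rapl1 was the remaining tested member of the family, with a log2 difference of 0.41 that did not pass (adjusted p = 0.0881, edgeR).

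The IL-17 receptor family rose for the most part. Il17rd had 35.9 to 66.4 CPM (median 49.5) at 6 h and 77.4 to 121 CPM (median 84.0) at 24 h, with no overlap (log2 0.94 ± 0.12 SE, adjusted p = 1.23e-06, edgeR). Il17rb, the IL-25 receptor, rose from a median of 3.21 to 6.89 CPM (log2 1.23), Il17rc from 5.49 to 10.3 CPM (log2 0.93) and Il17re, the IL-17C receptor, from 8.26 to 16.9 CPM (log2 0.91). Il17ra, with which those chains pair, went the other way, from a median of 30.6 to 19.8 CPM (log2 -0.62 ± 0.12 SE, adjusted p = 0.000132, edgeR). The ligand Il17d had a log2 difference of 0.11 and did not pass.

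Members of the other families were divided. The receptor chains for IL-4 and IL-13 fell, Il13ra1 from a median of 78.9 to 39.9 CPM without overlap (log2 -1.06 ± 0.09 SE, adjusted p = 4.5e-09, edgeR) and Il4ra by 0.65 on the log2 scale. Il13ra2, the decoy for IL-13, had a log2 change of -1.56, and Il7, a growth factor of lymphocytes, of -0.81. Il15 and Il15ra rose, by 0.42 ± 0.17 SE and 0.63 ± 0.19 SE on the log2 scale, as did Il3ra, the IL-3 binding chain, by 1.48 ± 0.22 SE. In the IL-10 family Il19, Il20rb and Il22ra1 fell, with log2 changes of -2.18, -0.89 and -1.41. Il10ra and Il10rb, with log2 differences of 0.44 and 0.08, did not pass.

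Il12rb1 and Il23r, the 2 chains of the IL-23 receptor, fell with log2 changes of -0.87 and -1.62. The change of Il23r was -2.37 without the PIO library of replicate 3 at 24 h. Il16 and Il34, a ligand of the macrophage receptor Csf1r, also fell, with log2 changes of -1.29 ± 0.17 SE and -1.39 ± 0.30 SE. By role, 8 of 12 tested ligands and 14 of 32 tested receptors were lower, and 2 ligands and 8 receptors were higher.

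**Figure D2:**
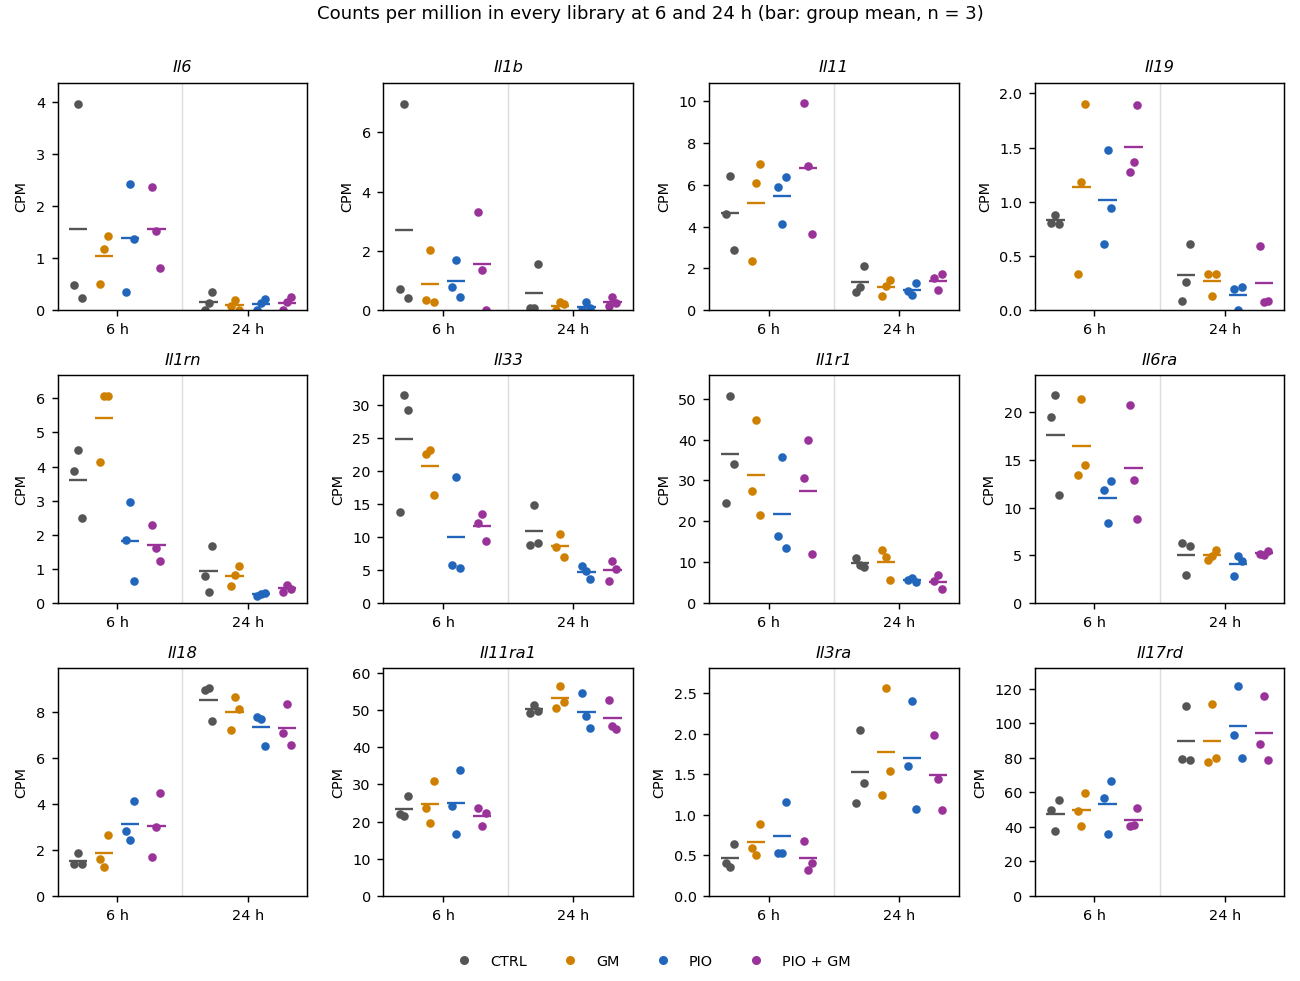
CPM of 12 members in each library (dots) at 6 and 24 h, coloured by treatment, with a bar at the mean of the 3 libraries of a group. Il18, Il11ra1 and Il17rd lay higher in every library of 24 h than in any of 6 h, and Il11 and Il6ra lower.

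The change with time was then read within each treatment. In CTRL 21 of 49 members passed (28% of all genes did), in GM 21 (24.2% of all genes), in PIO 22 (29% of all genes) and in PIO + GM 26 (34.6% of all genes). In each of the 4 treatments 10 members passed as lower, namely Il6, Il11, Il6ra, Il1r1, Il1rap, Il1rn, Il4ra, Il13ra1, Il20rb and Il16. Il18, Il11ra1, Il11ra2, Il17rd and Il3ra passed as higher in each. The share of all genes that passed in the same direction in each treatment was not computed. These counts are therefore not set against a background. No member passed in opposite directions in 2 treatments, 16 passed in 1 to 3 treatments and 18 in none. Il13ra2 passed in PIO and in PIO + GM, with log2 changes of -3.24 and -3.08, and had values of -0.19 in CTRL and 0.28 in GM that did not pass.

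**Figure D3:**
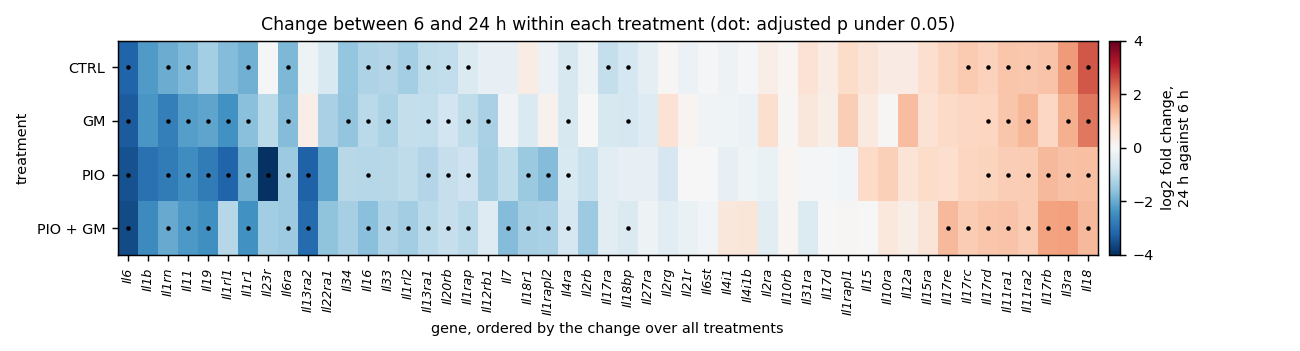
Log2 fold change between 6 and 24 h within each treatment (rows) for the 49 tested members (columns, ordered by the change over all treatments), with a dot where the adjusted p was under 0.05. Il6 was lowest and Il18 highest over all treatments, at log2 -3.40 and 1.77.

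Cell type markers also moved with time. Of 13 macrophage genes, 7 were higher and 1 was lower at 24 h, and their summed level ran from 62.5 to 163 CPM at 6 h and from 81.4 to 254 CPM at 24 h. Schwann cell genes (3 of 5 lower, 359 to 2567 CPM at 6 h and 333 to 842 CPM at 24 h) and spiral ganglion neuron genes (4 of 5 lower, 48.3 to 278 CPM and 28.4 to 173 CPM) fell. Supporting cell genes (5 of 7) and mesenchymal genes (4 of 6) rose, and of 8 hair cell genes 4 rose and 2 fell. The neutrophil list could not be tested, with all 5 genes at a median of 3 counts or fewer. Of 3 tested T cell genes Lck was lower, the list summing to 6.66 to 11.5 CPM at 6 h and 4.29 to 7.12 CPM at 24 h, and Kit, the 1 tested gene of the mast cell list, was lower as well. Reads on the olfactory and vomeronasal receptor genes had a median of 122 CPM at 6 h and 76.5 CPM at 24 h. With their sum as a covariate 36 members passed for time, and the share of all genes in that fit was not computed. Il15ra (log2 0.42, adjusted p = 0.0981, edgeR) and Il18r1 (log2 -0.56, adjusted p = 0.0888, edgeR) lost their call, and Il6st (log2 -0.27, adjusted p = 0.042, edgeR), Il1rapl1 (log2 0.65, adjusted p = 0.0223, edgeR) and Il12a (log2 1.14, adjusted p = 0.0074, edgeR) gained one. Without the 2 libraries with the most such reads Il15 lost its call (log2 0.41, adjusted p = 0.0585, edgeR), while Il1rapl1 and Il12a gained one. The part of the cell type shifts in the members' changes was not tested.

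Genes of interleukin signalling that lack the Il symbol were described in the same way. Of 48 such genes 46 were tested, and between 6 and 24 h 14 were higher and 17 lower, near the shares of 31.9% and 30.7% among all genes, with a median log2 change of -0.10. Lif and Osmr, a ligand and a receptor of the gp130 family, had the lowest p-values among those named, with log2 changes of -2.53 ± 0.23 SE and -1.86 ± 0.15 SE. Socs3, the feedback inhibitor induced by STAT3, fell by 0.92 on the log2 scale. Nlrp3, the sensor of an inflammasome, also fell (log2 -1.44), while Pycard and Gsdmd of the same list rose.

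Pioglitazone was examined as libraries with the drug against libraries without it, over both backgrounds, that is, with and without gentamicin. At 6 h 8 of 49 members passed, which is 16.3%, against 16.1% of all 16317 genes. The count was thus near the background. By direction, 1 member (2.0%) was higher and 7 (14.3%) were lower, against 9.25% and 6.83% of all genes. At 24 h 5 of 49 passed, all lower (10.2%), against 2.79% of all genes in either direction, 0.791% higher and 2% lower. The median log2 difference of the members was -0.15 at 6 h and -0.35 at 24 h, against -0.02 and 0.00 for all genes. Il16, Il10rb, Il4ra and Il22ra1 passed at both times.

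Il16 (chr7:83642819-83746028) was among the genes that the study named from these samples, so its direction is not independent evidence. At 6 h it had 12.4 CPM in the lowest, 24.3 in the median and 35.9 in the highest of the 6 libraries with pioglitazone, and 34.1, 46.0 and 61.5 CPM without it. The groups overlapped at a single pair of libraries. At 24 h the values were 6.38, 8.94 and 12.0 CPM with and 16.1, 19.1 and 28.9 CPM without pioglitazone, and the groups did not overlap. The level was 1.94-fold lower at 6 h (log2 -0.96 ± 0.23 SE, adjusted p = 0.0113, edgeR) and 2.32-fold lower at 24 h (log2 -1.21 ± 0.24 SE, adjusted p = 0.00863, edgeR).

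The shared chain Il10rb (chr16:91406157-91425834) changed by little but with narrow spread. It had 22.0 to 28.5 CPM (median 25.3) with and 29.9 to 35.9 CPM (median 32.2) without pioglitazone at 6 h, and 23.0 to 29.4 (median 27.2) with and 30.8 to 37.4 (median 33.8) without at 24 h. No library with the drug reached the lowest library without it at either time. The level was 1.29-fold lower at 6 h (log2 -0.37 ± 0.09 SE, adjusted p = 0.0114, edgeR) and 1.27-fold lower at 24 h (log2 -0.35 ± 0.09 SE, adjusted p = 0.0355, edgeR). Il22ra1, the chain with which Il10rb forms the IL-22 receptor, was lower too, but at 1 to 48 counts per library. Its median was 0.995 CPM with and 2.63 CPM without the drug at 6 h, and 0.227 and 1.45 CPM at 24 h. The log2 differences were -1.34 ± 0.44 SE (adjusted p = 0.0438, edgeR) and -2.25 ± 0.52 SE (adjusted p = 0.0238, edgeR), and the libraries overlapped at both times.

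Il4ra (chr7:125552271-125579474), the receptor chain for IL-4 and IL-13, had 36.1 to 64.6 CPM (median 45.3) with and 62.6 to 82.2 CPM (median 64.7) without pioglitazone at 6 h. At 24 h it had 25.9 to 32.8 CPM (median 31.7) with and 36.5 to 50.0 CPM (median 44.9) without, and the groups did not overlap. The level was 1.43-fold lower at 6 h (log2 -0.51 ± 0.13 SE, adjusted p = 0.0162, edgeR) and 1.44-fold lower at 24 h (log2 -0.52 ± 0.13 SE, adjusted p = 0.038, edgeR). Il13ra1, with which it pairs, had log2 differences of -0.08 and -0.20 that did not pass.

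In the IL-1 family, pioglitazone was accompanied at 6 h by lower Il1rn and Il33 and by higher Il18. Il1rn had 0.651 to 2.96 CPM (median 1.72) with and 2.48 to 6.07 CPM (median 4.31) without the drug, a 2.52-fold lower level (log2 -1.33 ± 0.32 SE, adjusted p = 0.0118, edgeR). Il33 had 5.28 to 19.1 CPM (median 10.7) with and 13.7 to 31.4 CPM (median 22.8) without it, a 2.10-fold lower level (log2 -1.07 ± 0.28 SE, adjusted p = 0.018, edgeR). Both overlapped between the groups. At 24 h Il33 had 3.38 to 6.36 CPM with and 7.01 to 14.8 CPM without pioglitazone, without overlap, and its log2 difference of -1.02 ± 0.29 SE did not pass (adjusted p = 0.0625, edgeR).

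Il18 was the only member that passed as higher in this comparison. At 6 h it had 1.69 to 4.46 CPM (median 2.89) with and 1.26 to 2.65 CPM (median 1.48) without pioglitazone, with overlap, and was 1.82-fold higher (log2 0.86 ± 0.22 SE, adjusted p = 0.0148, edgeR). At 24 h the medians were 7.38 CPM with and 8.39 CPM without the drug, and the log2 difference of -0.17 ± 0.19 SE did not pass (adjusted p = 0.714, edgeR). The difference between those 2 log2 values was -1.04 ± 0.29 SE and did not pass (adjusted p = 0.361, edgeR).

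Il34 was lower with pioglitazone at 6 h, at 1.62 to 7.63 CPM (median 2.09) against 3.83 to 15.7 CPM (median 8.10), with overlap. Its log2 difference was -1.39 ± 0.40 SE (adjusted p = 0.0271, edgeR), and at 24 h it was -1.05 ± 0.43 SE (adjusted p = 0.206, edgeR). Il13ra2, the IL-13 decoy, was lower at 24 h. It had 0 to 0.265 CPM (0 to 4 counts per library) with and 0.400 to 1.65 CPM (6 to 20 counts) without the drug, without overlap. The log2 difference was -2.43 ± 0.50 SE (adjusted p = 0.0134, edgeR) and became -3.04 without the PIO library of replicate 3. At 6 h the value was 0.78 ± 0.39 SE and did not pass.

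**Figure D4:**
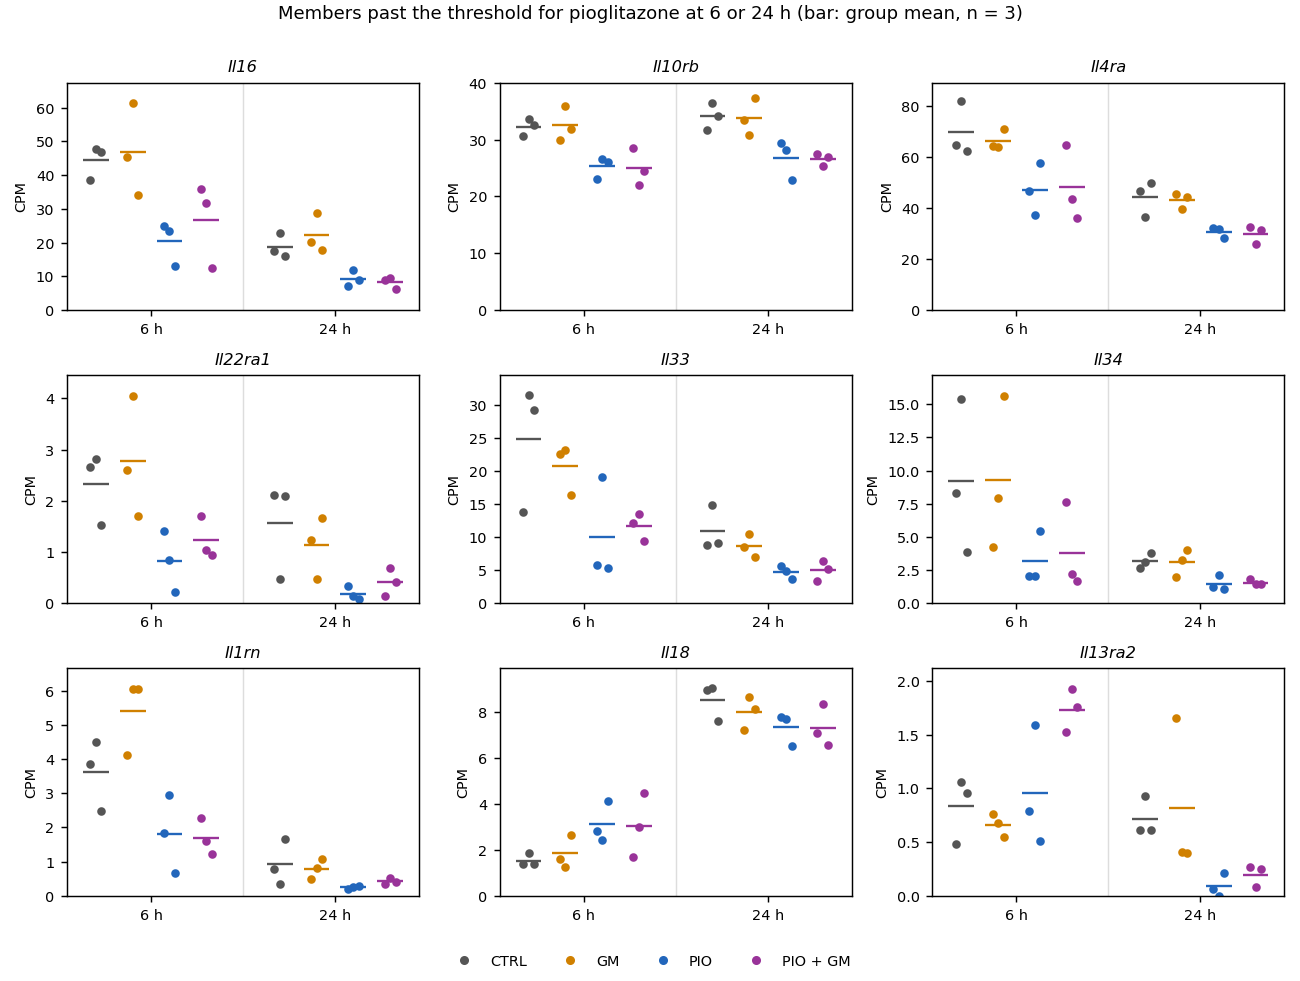
CPM of the 9 members that passed for pioglitazone at 6 or 24 h, in each library (dots), coloured by treatment, with a bar at the mean of the 3 libraries of a group. Il10rb, at 22.0 to 29.4 CPM with pioglitazone and 29.9 to 37.4 CPM without it, overlapped between libraries with and without the drug at neither time.

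Some calls for pioglitazone depended on the libraries. In a fit to the 12 libraries of 6 h alone, 0 of 46 members and 0.907% of 15769 genes passed. The lowest adjusted p of a member was 0.0674 (Il1rn, edgeR). An unadjusted p under 0.05 was reached by 12 members and by 3852 of the 15769 genes, a similar share. The log2 differences in that fit were -1.34 for Il1rn, -0.97 for Il16, -0.38 for Il10rb, -0.52 for Il4ra, -1.09 for Il33, -1.39 for Il34, -1.35 for Il22ra1 and 0.85 for Il18, each close to its value over all libraries. The same kind of fit at 24 h called 9 of 42 members, against 8.68% of 15822 genes. Il17ra was higher in that fit, and Il16, Il4ra, Il10rb, Il22ra1, Il33, Il34, Il1r1 and Il1rl2 were lower, while Il13ra2, at 0 to 20 counts, did not pass its filter. Without the PIO + GM library of replicate 3 at 6 h, the small library with the most receptor-gene reads, 5 members passed at 6 h, and Il22ra1, Il33 and Il34 did not. At 24 h 2 or 3 members passed when CTRL replicate 1 or 3, GM replicate 1 or 3, PIO replicate 2 or 3, or any PIO + GM library was left out. Il16 and Il13ra2 passed each time a library was left out. Shares of all genes were not computed for the fits that left out a library.

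Other values moved with pioglitazone. Reads on the olfactory and vomeronasal receptor genes summed to 90.9 to 278 CPM with and 56.9 to 130 CPM without the drug at 6 h, and to 39.5 to 165 and 38.7 to 141 CPM at 24 h. With this sum as a covariate, 7 members passed at 6 h, Il34 being the exception (adjusted p = 0.076, edgeR), and the same 5 at 24 h. Without the 2 libraries with the most such reads, 6 members passed at 6 h. Il4ra (log2 -0.36, adjusted p = 0.0984, edgeR), Il22ra1 (log2 -1.29, adjusted p = 0.155, edgeR) and Il34 (log2 -1.11, adjusted p = 0.149, edgeR) no longer passed at 6 h, and Il1rl2 did (adjusted p = 0.0377, edgeR). At 24 h 7 members passed in that fit, the same 5 with Il33 and Il1r1. The share of all genes called was not computed for either of these fits. Of the mesenchymal genes, Col3a1 and Pdgfra (2 of 6) were lower at both times, and the list summed to 2153 to 4036 CPM with and 2850 to 5380 CPM without pioglitazone at 6 h, and to 3742 to 4988 and 5192 to 7923 CPM at 24 h. Of 8 hair cell genes 4 were lower at 6 h and 0 at 24 h. Macrophage genes (0 of 13 at either time) did not pass, with summed levels of 62.5 to 133 CPM with and 70.1 to 163 CPM without the drug at 6 h. The part of the mesenchymal and hair cell genes in the members' differences was not tested.

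The same drug was also compared within each background. PIO against CTRL at 6 h called 0 of 49 members and 0.337% of all genes, and 10 members had an unadjusted p under 0.05, as did 15.2% of all genes. PIO + GM against GM at 6 h called 0 members and 1.32% of all genes, and 10 members (25% of all genes) had an unadjusted p under 0.05. At 24 h PIO against CTRL called 0 members and 0.153% of all genes, with 13 members and 9.93% of all genes at an unadjusted p under 0.05, while PIO + GM against GM called 0 members and 0.11% of all genes, with 9 members and 7.47% of all genes. DESeq2 called 3 members for PIO against CTRL at 6 h (Il16, Il18 and Il33) and 1 in each of the other 3, namely Il17rb, Il22ra1 and Il16 in the order given. Without the PIO + GM library of replicate 1 at 6 h, 6 members passed for PIO + GM against GM at that time. Shares of all genes were not computed for DESeq2 or for fits leaving out a library.

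Il16 had the lowest p-value of all members in PIO against CTRL at 6 h and in PIO + GM against GM at 24 h. At 6 h its means were 44.4 ± 5.05 CPM in CTRL, 46.9 ± 13.8 in GM, 20.6 ± 6.44 in PIO and 26.7 ± 12.5 in PIO + GM (SD, n = 3 each). At 24 h they were 18.7 ± 3.53, 22.3 ± 5.76, 9.30 ± 2.48 and 8.33 ± 1.72 CPM in the same order. The log2 difference was -1.11 ± 0.33 SE for PIO against CTRL and -0.80 ± 0.32 SE for PIO + GM against GM at 6 h, with adjusted p-values of 0.128 and 0.141 (edgeR). At 24 h it was -1.01 ± 0.33 SE and -1.42 ± 0.34 SE, with adjusted p-values of 0.268 and 0.118 (edgeR).

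Il22ra1 had the lowest p-value in PIO against CTRL at 24 h, with 0.0715, 0.130 and 0.321 CPM in the PIO libraries and 0.462, 2.10 and 2.11 CPM in the CTRL libraries (log2 -3.04 ± 0.76 SE, adjusted p = 0.115, edgeR). In PIO + GM against GM at 6 h it was Il1rn, with 1.22, 1.61 and 2.29 CPM in PIO + GM and 4.12, 6.06 and 6.07 CPM in GM (log2 -1.64 ± 0.46 SE, adjusted p = 0.0643, edgeR). Neither pair of groups overlapped, and neither difference passed the threshold.

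**Figure D5:**
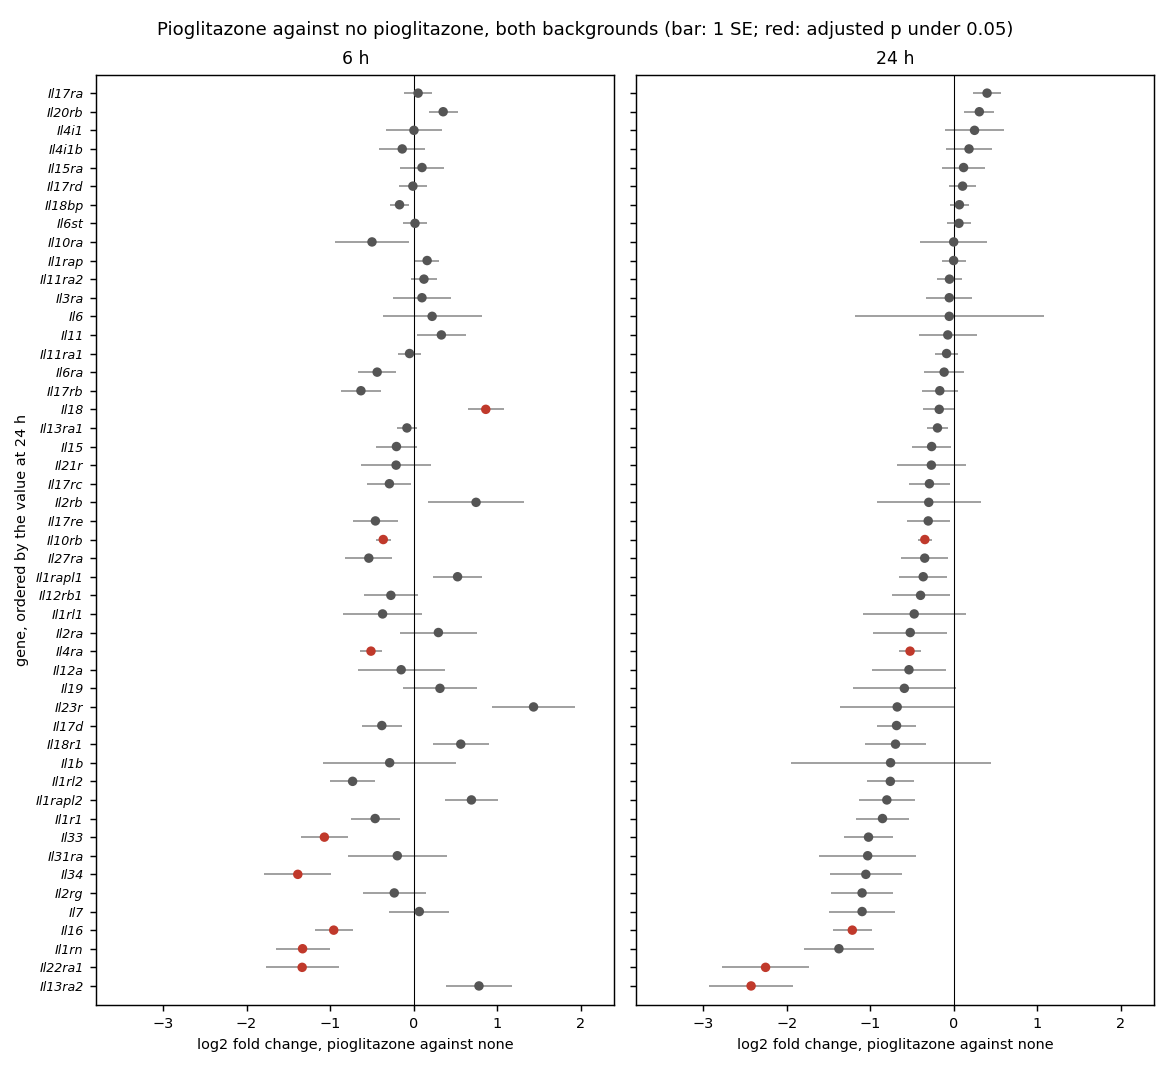
Log2 difference between libraries with and without pioglitazone (dots, bars of 1 SE) for the 49 tested members at 6 h (left) and 24 h (right), in red where the adjusted p was under 0.05. At 6 h 7 members were lower and Il18 higher, and at 24 h 5 were lower, with Il13ra2 at -2.43.

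Gentamicin was not accompanied by a called difference in any member. GM against CTRL called 0 of 49 members at 6 h (0% of all genes) and 0 at 24 h (0.0123%). Over both backgrounds gentamicin called 0 members at 6 h (0.0123% of all genes) and 0 at 24 h (0.313%). No member had an unadjusted p under 0.05 in any of these 4 comparisons, against 1.49%, 1.67%, 2.12% and 2.83% of all genes in that order, and DESeq2 called 0 members in each. The lowest p-values belonged to Il12rb1 in GM against CTRL at 6 h (log2 0.83 ± 0.45 SE), Il23r in GM against CTRL at 24 h (log2 -1.60 ± 0.87 SE), Il1rap over both backgrounds at 6 h (log2 0.29 ± 0.14 SE) and Il12rb1 over both backgrounds at 24 h (log2 0.54 ± 0.35 SE).

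The acute-phase ligands show how wide the uncertainty was. Il6 had 0.240, 0.483 and 3.97 CPM in the CTRL and 0.505, 1.18 and 1.43 CPM in the GM libraries at 6 h. Il1b had 0.399, 0.724 and 6.97 CPM in CTRL and 0.272, 0.336 and 2.02 CPM in GM, and its log2 difference was -1.62 with an SE of 1.10. A single CTRL library, replicate 2, held the highest value of both genes. Better measured members gave narrower values. Il18 had 1.36, 1.37 and 1.85 CPM in CTRL and 1.26, 1.60 and 2.65 CPM in GM at 6 h, and Il10rb had 30.6, 32.5 and 33.6 CPM in CTRL and 29.9, 31.9 and 35.9 CPM in GM.

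Whether the difference with pioglitazone depended on gentamicin was tested by an interaction. It called 0 of 49 members at 6 h and 0 at 24 h (0% of all genes at each time). At an unadjusted p under 0.05 there were 0 members and 1.8% of all genes at 6 h, and 2 members and 1.21% of all genes at 24 h. Those 2 were Il23r (log2 3.81 ± 1.32 SE) and Il1rl1 (log2 2.93 ± 1.23 SE), both at 0 in some library of 24 h. DESeq2 called 0 members in both.

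The difference with pioglitazone at 24 h minus that at 6 h called 0 of 49 members and 0.00613% of all genes, while 7 members and 10.1% of all genes had an unadjusted p under 0.05. Il13ra2 came closest, with a log2 value of -3.21 ± 0.64 SE (adjusted p = 0.104, edgeR), and it was the 1 member that DESeq2 called. At 6 h its CPM values were 0.507, 0.790 and 1.59 in PIO and 1.52, 1.76 and 1.93 in PIO + GM, against 0.483, 0.958 and 1.06 in CTRL and 0.544, 0.674 and 0.757 in GM. At 24 h they were 0, 0.0643 and 0.215 in PIO and 0.0758, 0.245 and 0.265 in PIO + GM, against 0.611, 0.615 and 0.925 in CTRL and 0.400, 0.405 and 1.65 in GM. The libraries with pioglitazone thus lay below those without it at 24 h, and at 6 h the PIO + GM libraries lay above the CTRL and GM libraries.

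Of the 46 tested signalling genes without the Il symbol, 4 were higher with pioglitazone at 6 h, and 0 were higher and 1 was lower at 24 h. These counts were near the shares of all genes, 9.25% higher at 6 h, and 0.791% higher and 2% lower at 24 h. Lifr, the LIF receptor, Pias1, a SUMO ligase, and the IL-1 pathway proteins Traf6 and Map3k7 were higher by 0.27, 0.35, 0.21 and 0.22 on the log2 scale. Gsdmd, the pore protein through which IL-1β and IL-18 leave the cell, was lower at 24 h (log2 -0.72 ± 0.18 SE, adjusted p = 0.0349, edgeR). Gentamicin over both backgrounds called 0 of the 46 at either time.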

How the data were processed

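Total RNA of 24 pooled OC samples was sequenced as stranded libraries. The authors mapped reads to the mouse genome (mm10) with STAR and counted with QuasR those starting in any RefSeq exon of a gene; the deposited values are raw counts per Entrez gene, without normalization, beside a gene length. The strand setting of the counting was not given in the sources used here. Of 24454 IDs, 24374 matched a symbol and 80 did not.

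The tests used edgeR 4.0.16 (R 4.3.3) with filterByExpr by group (16317 genes kept), TMM factors (0.96 to 1.04), 1 mean for each of the 8 groups over all 24 libraries, and quasi-likelihood F-tests with Benjamini-Hochberg adjustment over all tested genes at 0.05. Log2 values are log2 fold changes, and their SE was derived from the F statistic. CPM and RPKM were computed from the counts with TMM library sizes. DESeq2 1.42.0, other size factors, other filters, a replicate block, fits to 1 time point and fits leaving out each library were alternatives. The scripts were tested on simulated data. Precision is limited by totals of 7211357 to 15548856 counts per library, and floors of 3 counts cover counting error only. Members and gene lists were chosen with earlier results of these data known. Named members were those past the threshold in any comparison, the 3 with the lowest p in each, the 15 with the highest RPKM, a fixed list of well-known interleukins and receptors, and members of groups of 5 or fewer. One result for a signalling gene outside the members is not reported here.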

Additional observations from a re-analysis of the deposited data

How the results depend on the processing

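Counts of members past the threshold were recomputed under each alternative that applies to the comparison; the fits to 1 time point cannot give the change with time. With DESeq2, 3 members passed for PIO against CTRL at 6 h, and 1 each for PIO + GM against GM at 6 h, PIO against CTRL at 24 h, PIO + GM against GM at 24 h and the change of the pioglitazone difference with time, where edgeR called 0. For pioglitazone over both backgrounds, 0 members passed at 6 h and 9 at 24 h in fits to the libraries of the time point, and 3 at 24 h either without a filter or with at least 10 counts in every library. That filter, which leaves 25 members to test, gave 21 for 24 h against 6 h, all among the 35. As a measure of expression, at least 1 CPM in all 24 libraries, or at least 10 counts in each, was met by 25 members in place of 49. Leaving out 1 library gave 0 to 1 for PIO against CTRL at 6 h and at 24 h and for PIO + GM against GM at 24 h, 0 to 6 for PIO + GM against GM at 6 h, 5 to 11 and 2 to 7 for pioglitazone over both backgrounds at 6 and 24 h, and 35 to 38 for time. The alternatives added after seeing the data, on receptor-gene reads, were run for pioglitazone over both backgrounds at 6 and 24 h and for time, and these 3 counts stayed within 1.5 times. No log2 value that passed the threshold for a named member changed sign under an alternative. The single calls among the separate comparisons came without PIO replicate 2 or PIO + GM replicate 3 of 6 h (PIO against CTRL at 6 h), without PIO replicate 2 or 3 of 6 h (PIO + GM against GM at 6 h), without CTRL replicate 2 of 24 h (PIO against CTRL at 24 h) and without PIO + GM replicate 3 of 6 h (PIO + GM against GM at 24 h). The cause of these shifts was not tested, except that stricter filters test fewer genes. Among the alternatives, the share of all genes called was computed for the fits to 1 time point only. The other counts thus cannot be set against a background. The prior count for log2 CPM was not run, since no log2 CPM is given.

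The labels give no shared source for a replicate number, and not every same-numbered pair of libraries deviated together, so the numbers were not taken as pairs. The correlation exceeded 0.1 in 9 of 18 same-numbered pairs at 6 h (mean r 0.11, against -0.05 and 13 of 36 for other pairs) and in 15 of 18 at 24 h (mean r 0.38, against -0.18 and 10 of 36). With a replicate block, 13 members passed for pioglitazone at 6 h and 10 at 24 h, and 35 passed for time. The share of all genes called with the block was not computed, so these counts are not set against a background. At 6 h the block called 3 for PIO against CTRL (Il16, Il1rl2 and Il33) and 3 for PIO + GM against GM (Il16, Il17re and Il1rn). At 24 h it called 2 (Il16 and Il22ra1) and 1 (Il16) in the same order. For the pioglitazone difference with time it called 1 (Il13ra2).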
